A study of Rattus norvegicus with 12 samples.

Results

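The circadian clock genes described here are Nr1d1, Nr1d2, Dbp, Tef, Per1, Per2, Cry1, Npas2, Rora and Bmal1, 10 of the 14217 genes that the array annotation names singly. They were taken by symbol, and they have 16 probe sets, each of them several short probes read together for 1 transcript. A probe set counts as measured where its standard deviation (SD) over all 12 arrays is above 0.01 log2. That held for 10 of the 16, in 9 of the 10 genes, against 3240 of 31042 probe sets in the whole table.

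Livers came from male Sprague Dawley rats, 9 weeks of age at the end, which had eaten a purified AIN-93G control diet, that diet with 0.1% wakame powder or that diet with 1% wakame powder over 28 days. Wakame (a brown alga that people eat) was mixed in dry. Affymetrix rat expression arrays were run on 4 rats of each diet, 1 array per rat. All rats lived under the same cycle, with lights on from hour 8 to hour 20. The hour at which the livers were taken, and whether the diets followed a fixed order, are unknown here. Each diet had 6 rats housed 3 to a cage, and effects of the cage and of the diet cannot be told apart.

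The clock of a liver cell is a feedback loop of transcription. BMAL1, paired with CLOCK or its close relative NPAS2, binds E-box motifs and drives the Per, Cry, Nr1d and Dbp family genes. PER and CRY proteins then block that pair, while the repressors REV-ERBalpha (Nr1d1) and REV-ERBbeta (Nr1d2) compete with ROR activators such as RORalpha (Rora) for a shared element in Bmal1, Npas2 and Cry1. DBP and TEF, of the PAR bZIP family, bind D-box motifs and drive rhythmic genes of metabolism. Most of these transcripts are known to swing strongly over the day in rodent liver.

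The motifs that link these genes stand in some of their promoters. Windows of 250 bases upstream of a gene start (RefSeq, assembly GRCr8) were at hand for 9 of the 10 genes, with 10 windows since Nr1d1 has a pair. Cry1 had no window and was not searched. Both strands were searched for the E-box CACGTG, the E-box variant CACGTT, the D-box TTANGTAA and the element shared by REV-ERB and ROR, read as A, any 2 bases, T, any base and then GGTCA. The E-box was found in 2 of the 10 windows (Nr1d1 and Tef), against 5.59% of all 33469 windows in the table. The variant was in 2 (Nr1d1 and Per2, 4.07% of all), the D-box in 1 (Per2, 2.04%) and the element in 1 (Bmal1, 2.29%). With the C of GGTCA freed to any base, which also takes in every stricter match and holds in 7.87% of all windows, the element occurs in 1 window, again Bmal1, at a pair of places. This relaxed form was chosen after the Bmal1 window had been read. A match describes the letters and is not evidence of binding.

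The matches, apart from the variant of Per2, are shown so that the letters of each motif can be read in its place. Nr1d1, whose level differed most between the diets, has the variant in the 250 bases before its gene, at chr10:84231813-84232062 on the minus strand, and an E-box further in, inside the gene's annotated span, at chr10:84229629-84229656. Per2 has its D-box in the bases before its gene, at chr9:99497070-99497243 on the minus strand. Its variant, at chr9:99497050-99497055 inside the annotated span, lies outside the printed line. The Tef site lies at chr7:115206618-115206645, and those of Bmal1 at chr1:176766264-176766291 and chr1:176766300-176766327, all on the plus strand and inside the annotated span of the gene. Capitals mark the motif in each line (in the Nr1d1 upstream line, the variant as it reads on the opposite strand), and every line runs 5′ to 3′ on the strand of the gene.
Nr1d1 upstream: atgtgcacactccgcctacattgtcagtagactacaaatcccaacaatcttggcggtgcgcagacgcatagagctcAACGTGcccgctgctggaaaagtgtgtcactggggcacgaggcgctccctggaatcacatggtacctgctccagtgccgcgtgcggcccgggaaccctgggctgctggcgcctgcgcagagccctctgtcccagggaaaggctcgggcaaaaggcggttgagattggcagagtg
Nr1d1 E-box: gtcagctcccaCACGTGtctggggatcc
Tef E-box: acctggcccagCACGTGtctacatcgtt
Per2 upstream: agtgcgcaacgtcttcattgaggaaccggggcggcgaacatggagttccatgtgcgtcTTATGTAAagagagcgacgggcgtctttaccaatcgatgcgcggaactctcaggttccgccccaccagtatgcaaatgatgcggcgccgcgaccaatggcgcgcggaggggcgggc
Bmal1 element, upstream site: ttggtcggaAAGTAGGTTAgtggtgcga
Bmal1 element, downstream site: gaaggcagaAAGTAGGTCAgggacggag

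Same-diet arrays had pairwise correlations of 0.911 to 0.961 over the 3240 measured probe sets, and no pair held identical values. The 9 hepatocyte markers found on the array, of which 5 were measured, averaged from 13.16 to 13.47 log2 on the 12 arrays. The markers of muscle, fat and pancreas on the array were all flat, so RNA of those tissues was not measured. Of 38 marker genes of liver and other cell types on the array, 17 were measured. None of these 17 passed in any comparison of diets (limma, adjusted p under 0.05). At an unadjusted p under 0.05 there were 0 for 1% wakame against control (18.5% of all measured probe sets), 2 for 0.1% wakame against control (11.5%) and 0 for 1% against 0.1% wakame (6.76%). Of the 17 markers, 14 lay higher with 1% wakame than with control and 12 with 0.1% wakame than with control, where 44.9% and 44.1% of all measured probe sets lay higher. The part of this in the clock results was not tested. In whole liver, a lower level per cell and fewer cells of a type cannot be told apart. Levels below are the authors' log2 values, and differences are tested with limma over all 3240 measured probe sets, with Benjamini-Hochberg adjusted p and standard errors (SE) from the same fit. Rose and fell are kept for an adjusted p under 0.05.

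With 1% wakame, Nr1d1 rose by 1.98 ± 0.33 log2 over control, or 3.95-fold, in 4 rats per diet. It was the 1 of 9 measured clock genes that passed, where 1.67% of all measured probe sets passed and 0.864% passed as higher. The groups did not overlap in 7 of the 10 clock probe sets, while 11.3% of all measured probe sets showed no overlap. In 5 of them every 1% rat lay above every control rat (5.22% overall), and in 2 every 1% rat lay below (6.05% overall). At an unadjusted p under 0.05 there were also 7 of 10, against 18.5% overall. The absolute difference had a median of 0.63 log2 over the 9 genes and of 0.15 over all measured probe sets, and the signed difference a median of 0.16 against −0.02. The clock genes, and the gene lists used further on, were chosen with earlier results of these data known. Here and in the other comparisons, such contrasts with all measured probe sets are therefore no independent evidence.

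**Figure D1:**
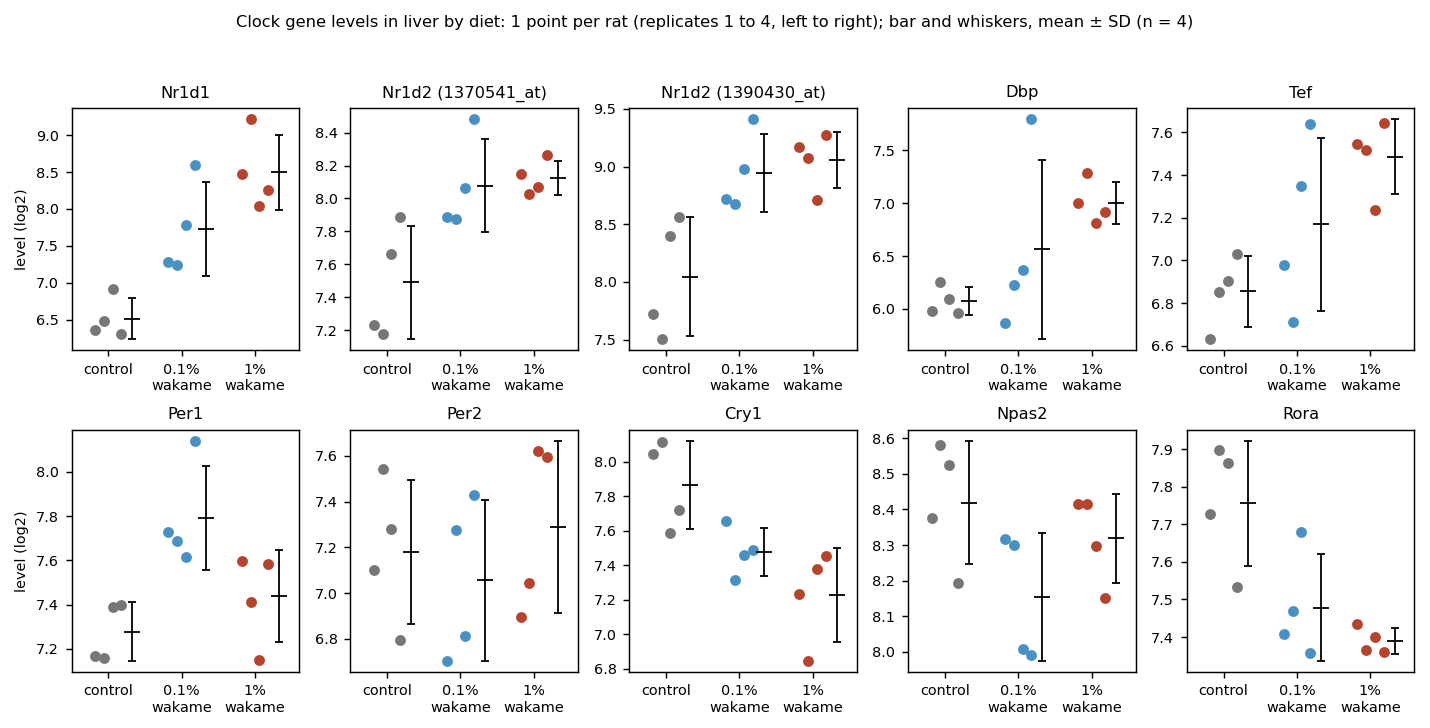
Levels (log2, vertical axis) of the 10 measured clock probe sets by diet, with 1 point per rat and the mean ± SD of 4 rats beside them; each panel has its own scale. The 4 rats on 1% wakame lie above all 4 controls for Nr1d1, both Nr1d2 probe sets, Dbp and Tef, and below them for Cry1 and Rora, while Per1, Per2 and Npas2 overlap.

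Nr1d1 encodes REV-ERBalpha, the haem-binding repressor of Bmal1. Its levels were 6.35, 6.48, 6.91 and 6.31 log2 in the 4 control rats, 7.28, 7.24, 7.78 and 8.60 in the 0.1% rats, and 8.47, 9.21, 8.04 and 8.26 in the 1% rats. The lowest 1% rat lay above every control, and so did the lowest 0.1% rat, while the 0.1% and 1% rats overlapped through rat 4 of the 0.1% diet. Means were 8.50 ± 0.51 with 1% wakame and 6.51 ± 0.28 with control (SD, n = 4), and the difference of 1.98 had a 95% interval of 1.26 to 2.71 (limma adjusted p = 0.0262).

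The call for Nr1d1 depended on single arrays. When each of the 8 arrays was omitted in turn, it passed 3 times, without control 3, 1% rat 1 or 1% rat 3, and the difference ran from 1.74 to 2.13 (adjusted p from 0.0294 to 0.0761). In the same fits 7 to 36 of all measured probe sets passed, against 54 with every array kept. The gap between the 3-prime and 5-prime Gapdh control probe sets, a sign of RNA integrity, was 1.04 to 1.07 log2 on the control arrays, 0.958 to 1.20 on the 0.1% arrays and 1.04 to 1.42 on the 1% arrays. It was highest on 1% rat 2, which also had the highest Nr1d1. The beta-actin control probe sets did not show this. Their 3-prime to 5-prime gap was 2.21 to 2.49 on the control arrays and 2.07 to 2.43 on the 0.1% arrays. On the 1% arrays it was 2.28 to 2.43, lowest on 1% rat 2. With the Gapdh gap in the fit, Nr1d1 was 1.73 ± 0.39 higher with 1% wakame than with control and did not pass (limma adjusted p = 0.166). The Nr1d1 gene overlaps Thra, on the opposite strand, by 1061 bases in GRCr8. Thra has no measured probe set, and the stretch of Nr1d1 that the probes cover was not looked up here.

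Nr1d2 encodes REV-ERBbeta, which shares the target element and much of the work of REV-ERBalpha. Its brighter probe set, 1390430_at, stood at 7.72, 7.51, 8.40 and 8.56 in control rats, 8.72, 8.67, 8.98 and 9.41 in 0.1% rats and 9.17, 9.07, 8.71 and 9.27 in 1% rats. Both wakame groups lay wholly above the controls, and they overlapped each other almost entirely. The 1% rats were 1.01 ± 0.25 log2 above control (limma adjusted p = 0.0754).

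The dimmer probe set, 1370541_at, gave 7.23, 7.18, 7.66 and 7.89 in control rats, 7.89, 7.88, 8.06 and 8.48 in 0.1% rats and 8.15, 8.03, 8.07 and 8.26 in 1% rats. It was 0.64 ± 0.18 higher with 1% wakame than with control (limma adjusted p = 0.0995), so the size depended on the probe set while the direction was shared. Neither passed. In both probe sets control rats 1 and 2 were lower than control rats 3 and 4. The remaining probe set of Nr1d2 held one value on all 12 arrays.

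Dbp, the D-box activator with one of the steepest daily swings in rodent liver, stood at 5.98, 6.26, 6.10 and 5.96 in control rats, 5.87, 6.22, 6.37 and 7.79 in 0.1% rats and 7.00, 7.28, 6.81 and 6.92 in 1% rats. The 1% rats all lay above the controls. In the 0.1% group, 3 rats lay within or close to the control range and rat 4 lay above every other rat of the study. The 1% diet was 0.93 ± 0.34 above control (limma adjusted p = 0.189), with means of 7.00 ± 0.20 and 6.08 ± 0.13 (SD, n = 4). Fitted on those 8 arrays alone, without the spread of the 0.1% group, the adjusted p was 0.0291.

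Tef, a relative of Dbp that binds the same motif, gave 6.63, 6.85, 6.90 and 7.03 in control rats, 6.98, 6.71, 7.35 and 7.64 in 0.1% rats and 7.55, 7.52, 7.24 and 7.64 in 1% rats. Again the 1% rats lay above all controls, and the 0.1% rats spread over the range of both. The difference of 0.63 ± 0.18 between 1% wakame and control did not pass (limma adjusted p = 0.114). The other probe sets of Tef were flat.

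None of Cry1, Per1 and Per2, whose proteins block the E-box activators, passed in any comparison. Cry1, the cryptochrome that holds the E-box activators in check, stood at 8.04, 8.11, 7.59 and 7.72 in control rats, 7.65, 7.31, 7.46 and 7.49 in 0.1% rats and 7.23, 6.85, 7.37 and 7.45 in 1% rats. All 1% rats lay below all controls, and the 0.1% group overlapped each of the others. The 1% diet was 0.64 ± 0.16 below control (limma, difference −0.64, adjusted p = 0.0700).

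Per1, a period gene that also answers glucocorticoids and feeding cues, was highest with the smaller dose. It gave 7.17, 7.16, 7.39 and 7.40 in control rats, 7.73, 7.69, 7.62 and 8.14 in 0.1% rats and 7.60, 7.41, 7.15 and 7.58 in 1% rats. The 0.1% rats lay above every rat of the other diets, and the 1% rats overlapped the controls. The 1% diet was −0.35 ± 0.14 from the 0.1% diet (limma adjusted p = 0.655), and 0.16 ± 0.14 from control (limma adjusted p = 0.572).

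Per2, its close relative, ran from 6.79 to 7.54 in control rats, from 6.70 to 7.43 in 0.1% rats and from 6.89 to 7.62 in 1% rats. The diets overlapped throughout. The other probe set of Per2 was flat, at 7.09 on all 12 arrays. The 1% diet was 0.11 ± 0.23 from control, with a 95% interval of −0.40 to 0.62, which leaves room for shifts of either sign (limma adjusted p = 0.874).

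On the activator side, Npas2, the partner of BMAL1, gave 8.37, 8.58, 8.52 and 8.19 in control rats, 8.32, 8.30, 8.01 and 7.99 in 0.1% rats and 8.42, 8.42, 8.30 and 8.15 in 1% rats. The 1% rats overlapped the controls and differed by −0.10, with a 95% interval of −0.35 to 0.15 (limma adjusted p = 0.706). Rora, the activator that competes with the REV-ERBs, stood at 7.73, 7.90, 7.86 and 7.53 in control rats, 7.41, 7.47, 7.68 and 7.36 in 0.1% rats and 7.43, 7.36, 7.40 and 7.36 in 1% rats.

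Every 1% rat lay below every control for Rora, and the 1% rats agreed closely, with an SD of 0.035 against 0.17 in control. The difference of −0.37 ± 0.09 did not pass (limma adjusted p = 0.0812). The other probe set of Rora was flat, at 6.17 on all 12 arrays. Bmal1, the core activator, has 1 probe set, which held 7.62 on all 12 arrays, so its response was not measured. A flat value does not show that the RNA level stayed the same, since it is not known how these values were made.

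**Figure D2:**
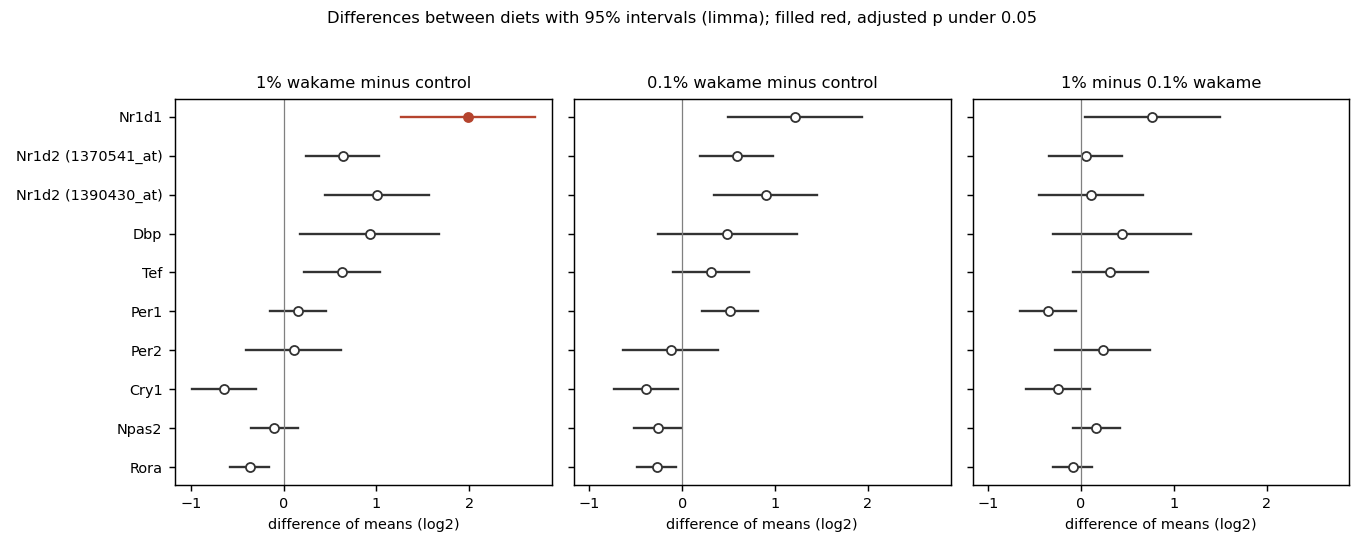
Differences of mean log2 level between diets for the 10 measured clock probe sets, with 95% intervals from limma (horizontal axis) and 4 rats per diet. Only Nr1d1 with 1% wakame against control, at 1.98, has an adjusted p under 0.05.

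The smaller dose asks whether the pattern is present at 0.1% wakame. No clock gene passed against control, where 0.0617% of all measured probe sets passed, and 7 of the 10 clock probe sets had an unadjusted p under 0.05, against 11.5% overall (limma). Groups did not overlap in 3 of 10, against 5.86% overall. All 3 were higher in the 0.1% rats (2.5% overall), and 0 were lower (3.36% overall). These were Nr1d1 at 1.21 ± 0.33 (limma adjusted p = 0.196), the brighter probe set of Nr1d2 at 0.90 ± 0.25 (0.204) and Per1 at 0.51 ± 0.14 (0.196).

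Among the others, the dimmer probe set of Nr1d2 was at 0.59 ± 0.18, Dbp at 0.49 ± 0.34 and Tef at 0.31 ± 0.18 for 0.1% wakame minus control. Cry1 was at −0.39 ± 0.16, Rora at −0.28 ± 0.09, Npas2 at −0.27 ± 0.11 and Per2 at −0.12 ± 0.23. This comparison and that of 1% wakame with control share the control rats, so the 2 sets of differences are not independent of each other.

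Rat 4 of the 0.1% diet weighed on this comparison. It was the highest of the 12 rats in Dbp, Per1 and both Nr1d2 probe sets. Without it, Nr1d1 was 0.92 ± 0.27 above control (limma adjusted p = 0.412), Per1 0.40 ± 0.12 and Tef 0.16 ± 0.16, while Dbp was 0.08 ± 0.15. The brighter and dimmer probe sets of Nr1d2 were then at 0.74 ± 0.25 and 0.45 ± 0.17. The lower genes were at −0.39 ± 0.18 (Cry1), −0.24 ± 0.10 (Rora), −0.21 ± 0.12 (Npas2) and −0.25 ± 0.24 (Per2).

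Between the doses, no clock gene passed, as no measured probe set did (0% of 3240), and 2 of the 10 clock probe sets had an unadjusted p under 0.05, against 6.76% overall (limma). Those 2 were Nr1d1, at 0.77 ± 0.33 for 1% minus 0.1% wakame (limma adjusted p = 0.698), and Per1, given above. Per1 was also the 1 probe set of 10 without overlap, against 3.77% of all measured probe sets. It was lower in the 1% rats (1.94% overall), and 0 clock probe sets were higher without overlap (1.82% overall). Both Nr1d2 probe sets were close at the 2 doses, at 0.11 ± 0.25 and 0.05 ± 0.18, with 95% intervals from −0.45 to 0.67 and from −0.34 to 0.44. Without rat 4 of the 0.1% diet, Nr1d1 was 1.06 ± 0.27 and Dbp 0.85 ± 0.15 above the 0.1% rats at the 1% dose (limma adjusted p = 0.375 and 0.288).

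Rats of one diet also differed from each other in these genes. After the mean of each diet was removed, 36 pairs of the 9 measured genes were compared over the 12 rats, each by an exact two-sided permutation within diets. None passed after adjustment over the 36 pairs (lowest adjusted p = 0.0530), and 4 pairs had an unadjusted p under 0.05. Nr1d1 and Dbp went together with a Pearson r of 0.83 and a Spearman rho of 0.78 (exact p = 0.00441 and 8.68e-04). Leaving out 0.1% rat 4 and 1% rat 2, the farthest from the median in Nr1d1, brought r to 0.63. Nr1d2 went with Per1 at r = 0.81 (exact p = 0.00427) and with Tef at r = 0.75 (exact p = 0.00217). Without control rats 2 and 4, the farthest from the median in Nr1d2, these were 0.86 and 0.88. Those values still include 0.1% rat 4, which lay farthest from its diet's mean in Per1 (0.35) and in Tef (0.47). Tef and Per1 had r = 0.72 (exact p = 0.0219), and 0.60 without 0.1% rats 2 and 4, the farthest from the median in Tef.

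Within diets, Nr1d1 and Cry1, which lay on opposite sides of control at 1% wakame, had r = −0.50 (exact p = 0.102), and Nr1d1 and Rora had r = 0.02 (exact p = 0.952). The rat that stood out most was 0.1% rat 4, at 1.23 log2 above the mean of its diet in Dbp, 0.87 in Nr1d1 and 0.47 in Tef. The 1% rat 2 was 0.72 above its diet's mean in Nr1d1 and 0.38 below it (deviation −0.38) in Cry1.

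**Figure D3:**
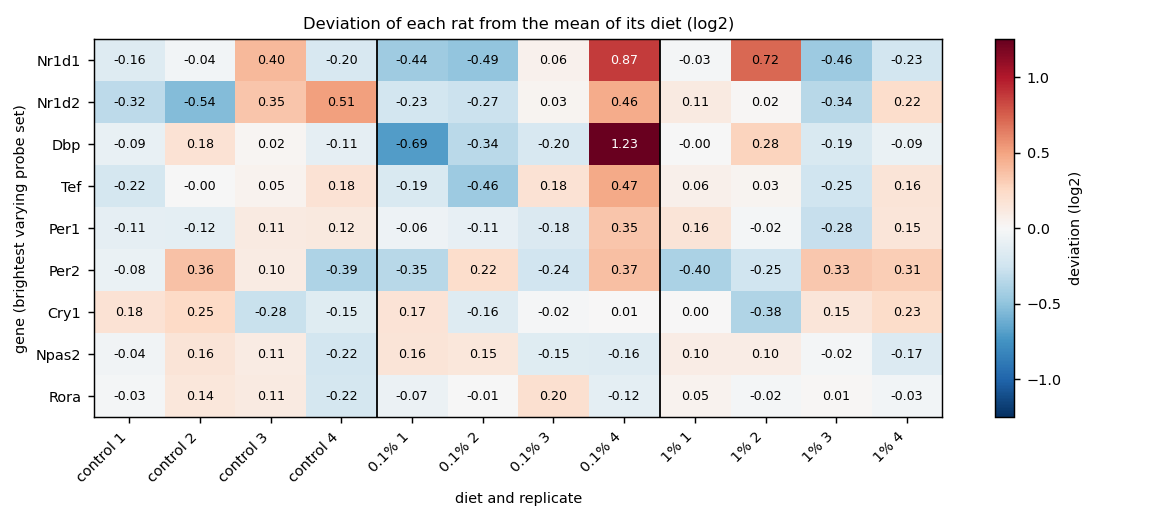
Deviation of each rat from the mean of its diet (log2, colour and printed value) in the brightest measured probe set of 9 clock genes; columns are the 4 rats of each diet. Rat 4 of the 0.1% diet is high in Nr1d1, Nr1d2, Dbp, Tef, Per1 and Per2, by 0.35 to 1.23.

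Genes around the clock were taken from 7 lists that hold 61 genes, of which 51 are on the array under a single symbol and 29 were measured. Counted at the brightest measured probe set of each gene, 0 of the 29 passed for 1% wakame against control (1.67% of all measured probe sets), and 10 had an unadjusted p under 0.05 by limma (18.5% of all). In that comparison 16 lay higher and 13 lower, where 44.9% of all measured probe sets lay higher. For 0.1% wakame against control, 0 passed (0.0617% overall), 7 had an unadjusted p under 0.05 (11.5% overall), and 19 of 29 lay higher (44.1% overall).

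Among other core clock genes, 5 of 9 were measured, and their median difference between 1% wakame and control was −0.07. Per3, the third period gene, was 0.37 ± 0.15 higher (limma adjusted p = 0.228), from means of 6.81 ± 0.07 with 1% wakame and 6.43 ± 0.04 with control (SD, n = 4). Nfil3, the repressor that competes with DBP and TEF at the D-box and is itself repressed by the REV-ERBs, was at −0.87 ± 0.36 (adjusted p = 0.238). Hlf, the third PAR bZIP factor, was at 0.13 ± 0.16 and 0.02 ± 0.25 in its 2 measured probe sets, and Clock was at −0.07 ± 0.06.

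The PAR bZIP factors are known to drive Nr1i3, the xenobiotic receptor CAR, Por, the electron donor of cytochromes P450, and Alas1, the first enzyme of haem synthesis. All 3 were measured, with a median of 0.52. Nr1i3 was 1.16 ± 0.41 and Por 0.52 ± 0.23 higher with 1% wakame than with control (limma adjusted p = 0.175 and 0.268), and Alas1 was at 0.04 ± 0.15. Usp2, a deubiquitinase with strong daily rhythm, was at 0.98 ± 0.40 in one probe set (adjusted p = 0.228) and at 0.05 ± 0.05 in its brighter one. It and Csnk2a1, a subunit of a kinase that acts on clock proteins, at −0.33 ± 0.18, were the measured members of the list of kinases and turnover factors.

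Lpin1 and Noct had their highest means at the smaller dose. The brighter probe set of Lpin1, a phosphatidate phosphatase with daily rhythm in liver, averaged 8.38 ± 0.32 in control rats, 10.28 ± 1.12 in 0.1% rats and 9.41 ± 0.99 in 1% rats (SD, n = 4), and was 1.91 ± 0.58 above control at 0.1% (limma adjusted p = 0.228). Its dimmer probe set averaged 7.81 ± 0.34 in control rats, 10.10 ± 1.24 in 0.1% rats and 9.25 ± 1.15 in 1% rats (SD, n = 4), and was 2.29 ± 0.65 above control at 0.1% (limma adjusted p = 0.213). Noct, the rhythmic phosphatase nocturnin, was 0.48 ± 0.18 above control at 0.1% wakame (adjusted p = 0.350) and at −0.07 ± 0.18 at 1%. The list of rhythmic outputs had 8 of 10 genes measured, with medians of −0.02 at 1% and 0.11 at 0.1% wakame against control.

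Of the genes next to REV-ERB, Ncor1, its corepressor, was at −0.45 ± 0.14 with 1% wakame against control (limma adjusted p = 0.130) and at −0.46 ± 0.14 with 0.1% wakame (0.228). Nr0b2, the orphan receptor SHP, was at 1.49 ± 0.59 and 1.93 ± 0.59 in the same comparisons (adjusted p = 0.220 and 0.231). These and Ppargc1a were the 3 measured genes of the list, with a median of 0.26 at 1% wakame.

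Genes that answer glucocorticoids, a signal that resets liver clocks, pointed both ways. Of 6 measured, with the receptor gene Nr3c1 counted among them, 3 lay higher and 3 lower with 1% wakame than with control, with a median of 0.16. At an unadjusted p under 0.05 (limma) there were 2, Fkbp5 and Tsc22d3, both higher, where 18.5% of all measured probe sets had such a p. Fkbp5 was at 0.60 ± 0.20 (limma adjusted p = 0.154). Tsc22d3, a direct glucocorticoid target, was at 0.84 ± 0.34 at 1% wakame (limma adjusted p = 0.233) and at 1.42 ± 0.34 at 0.1% wakame (0.190). Tat, tyrosine aminotransferase, was at −1.04 ± 0.48 and 0.77 ± 0.48 (adjusted p = 0.280 and 0.596), and at −1.81 ± 0.48 for 1% against 0.1% wakame (0.498).

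In the list of temperature and immediate early cues, 2 genes were measured. Egr1, an immediate early factor, was at 2.34 ± 0.87 with 1% wakame against control (limma adjusted p = 0.199), with rats from 9.05 to 11.11 against 6.50 to 9.11, so the groups overlapped. Crem, a regulator of cyclic AMP responses, was at −0.37 ± 0.14 in its brightest probe set (adjusted p = 0.204).

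**Figure D4:**
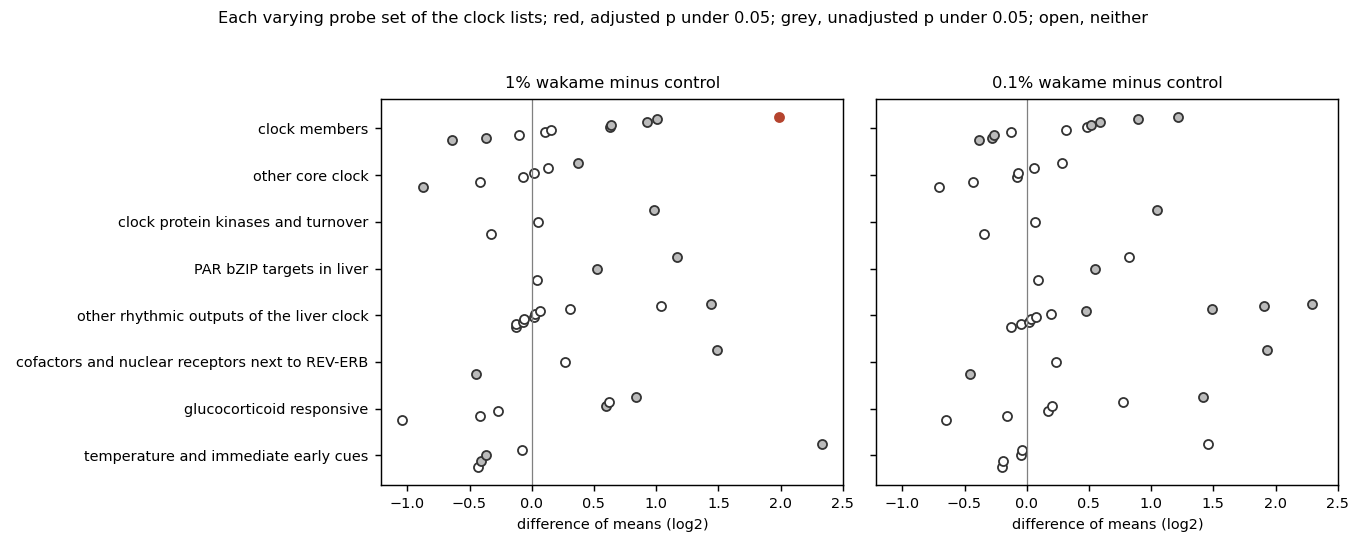
Difference of mean log2 level from control (horizontal axis) for every measured probe set of the clock genes and of the 7 lists around them, with 1% wakame on the left and 0.1% wakame on the right. Nr1d1 at 1% wakame is the only point with a limma adjusted p under 0.05; the points with an unadjusted p under 0.05 are grey.

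Outside these lists, the genes most like Nr1d1 were ranked by Pearson r over the 12 arrays among 2263 genes, each at its brightest measured probe set. The closest were Pald1 (r = 0.97), Baiap2 (0.95), Ccdc6 (0.94), Sh3bp5 (0.93) and Nudt16 (0.92), with Spearman rho from 0.923 to 0.965. Their r with diet means removed was 0.92, 0.83, 0.80, 0.77 and 0.76, which is no separate evidence, since the r that chose them holds the same deviations. The most opposite were Tubb2a (r = −0.91), the lipid hydrolase gene Pnpla3 (−0.91), the fatty acid elongase gene Elovl6 (−0.90), Dipk2a (−0.90) and Egln1 (−0.90), with r from −0.83 to −0.66 within diets. They were picked as the extremes of a ranking over arrays that share diets, so no p is given.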

How the data were processed

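The deposited file is a single table with a column of log2 values for each array. No source used here states the scale, and log2 was taken from the range of 3.15 to 14.6. The submitters' processing notes name R 2.7.2. How the authors corrected background, normalized arrays and summarised probes is unknown here. Per the labels' protocols, 100 ng of total RNA was labelled with a kit that copies transcripts from the 3-prime end. Precision is limited by the number of arrays. Of 31099 probe sets, 57 are manufacturer's controls, and 27802 of the others have an SD of at most 0.01 log2. On the remaining 3240, limma 3.58.1 (R 4.3.3) estimated 1 mean per diet from the 12 arrays, with a variance trend. The procedure was tested on simulated data. Gene symbols came from the platform annotation. List medians use the brightest measured probe set per gene. The text names every clock gene, the passing members of each list or otherwise the 2 with the lowest p, and the 5 genes most and least correlated with Nr1d1. Hlf, Clock, Alas1, Ppargc1a, Fkbp5 and Nr3c1 were added after their values were seen. Members and lists were chosen with earlier results of these data known. Alternatives tried were all probe sets, an SD limit of 0.05, no variance trend, quantile normalization, only the diets compared, the replicate number as a block, 1 probe set per gene, the Gapdh gap as a covariate and each array left out.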

Additional observations from a re-analysis of the deposited data

How the results depend on the processing

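The count of 1 clock gene passing for 1% wakame against control became 0 with all probe sets tested, 0 with the replicate number as a block, 0 with the Gapdh gap as a covariate and 2 with only the compared diets, and ran from 0 to 1 with an array left out. For Nr1d1, 5 of 8 alternatives other than leaving out an array passed (limma adjusted p from 0.0209 to 0.227), with differences of 1.73 to 2.01. The counts for 0.1% wakame against control and between doses were 0 throughout. Same-numbered arrays did not deviate together over all measured probe sets (r from −0.12 to 0.09 over 12 pairs). The labels do not say what the numbers stand for, and this r cannot show a block that moves only a few genes. Of 1109 refitted gene differences, 6 changed sign, none of them in a call, all with an array left out: Per2 (−0.0195 to 0.24) and Noct (−0.20 to 0.02) for 1% wakame against control, and the dimmer Nr1d2 probe set (−0.0182 to 0.18) between doses. The 0 correlated pairs became 2 with Spearman's rho (Nr1d1 with Dbp, Nr1d2 with Tef), 12 without removing diet means, and 0 to 2 with an array left out. Over all genes, 54 probe sets passed for 1% wakame against control, and 9, 28, 12, 10 and 4 with all probe sets, the compared diets alone, the block, 1 probe set per gene and the Gapdh covariate, or 7 to 36 with an array left out. For 0.1% wakame against control, 2 probe sets passed, and 5, 1, 0, 0 and 0 with all probe sets, quantile normalization, the compared diets alone, the block and 1 probe set per gene, or 0 to 3 with an array left out. Between doses 0 became 6 with all probe sets, and 0 to 1 with an array left out.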
